A study of Xenopus laevis with 4 samples.

Results

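The m5C sites of the maternal genes that carried 10 or more sites each were examined in stage 0 embryos of Xenopus laevis. A gene was included when its identifier stood at 10 or more cytosines of the stage 0 site list. This rule took 66 of the 7140 listed genes (0.924%) and 774 of the 16233 listed sites (4.77%). Since the number of sites chose the genes, that number is a description here and was not tested. RNA bisulfite sequencing was done on polyadenylated RNA from pools of wild-type embryos at stage 25 and at stage 0, with 2 libraries per stage. Neither stage had a mutation or an added agent, and stage 0 embryos hold mainly mRNA made by the mother. Titles of the stage 25 libraries begin with XT, whereas their organism label gives X. laevis. The authors combined both libraries of a stage into 1 value per site, so no spread between replicates could be given, and the 95% Wilson intervals below cover counting error alone.

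In animal mRNA, 5-methylcytosine is written by the methyltransferases NSUN2 and NSUN6. NSUN2 acts on cytosines followed by G-rich bases at the foot of a hairpin, and NSUN6 acts on a short motif in the loop of a hairpin. The egg stores mRNA that directs the first divisions of the embryo before its own genome is transcribed, and these stored mRNAs are translated and degraded on a fixed schedule. Bisulfite treatment turns unmethylated cytosine into a base read as T, while m5C is still read as C. The level of a site is the share of C reads among its C and T reads, and its coverage is the number of those reads. A cytosine was listed by the authors from a coverage of 20 reads and a level of 10% upwards, so a gene with few listed sites may also have been covered too thinly.

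The 66 genes encoded proteins of many kinds, from chromatin enzymes and kinases to receptors. LOC108701695 had the most sites, 19, and is named wdr90.L in RefSeq, after a WD-repeat protein of centrioles. It was followed by arhgef17.L with 18 sites. Next were both copies of a histone lysine methyltransferase, LOC108708548 (kmt2d.L in RefSeq) and LOC108708990 (kmt2d.S), with 17 sites each. LOC733283, for which no role is given here, had 16 sites, and wnk1.L, a kinase that regulates ion transport, had 15. Numbers of 14 were found in sbf2.L, which belongs to the myotubularin family, in LOC108716635 (ralgapa2.L, a GTPase activator for Ral) and in cad.L, which catalyses the first steps of pyrimidine synthesis. There were 9 genes with 13 sites, 9 with 12 sites, 15 with 11 sites and 24 with 10 sites. Of the 66 genes, 63 matched the RefSeq gene list of assembly Xenopus_laevis_v10.1, which gave a symbol to 11 of the 19 genes listed under a LOC number.

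Levels of the 774 sites ranged from 10% to 98.1%. Their median was 19.8%, with quartiles of 13.7% and 34.9%, against a median of 21.1% and quartiles of 13.9% and 37.5% over all 16233 sites. In genes with 5 to 9 sites the median was 20.8%. Levels under 20% were found at 389 of the 774 sites (50.3%), against 47.2% of all sites. At 113 sites (14.6%) the level was 50% or more, against 16.3% of all sites, and at 36 sites (4.65%) it was 80% or more, against 4.78%. Thus, these shares differed little from those of the whole list. The median width of a Wilson interval on one side was 5.49 percentage points.

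Within a gene, levels were spread widely. The difference between the highest and the lowest site of a gene had a median of 67.9 percentage points over the 66 genes and ranged from 18.1 points, in LOC108711543, to 87.6 points, in sptbn1.S. Counts of C and T reads were not alike over the sites of the gene in 66 of 66 genes (chi-square test with Benjamini-Hochberg adjustment over 3895 genes with at least 2 sites, largest adjusted p = 0.00011). The same test passed in 74.4% of all 3895 genes, in 96.2% of the 629 genes with 5 to 9 sites and in 69.6% of the 3200 genes with 2 to 4 sites. As more sites and reads give the test more power, the higher share was not read as a property of these genes. By contrast, the gene medians ranged only from 14.3% to 31.7%. In genes with 5 to 9 sites they ranged from 10.5% to 76.1%. A median over more sites varies less by number alone, so this is a description. Splitting the variance of levels into parts within and between genes gave an SD of 20.8 percentage points within genes and an estimate of 0 between them (66 genes, 774 sites). In genes with 5 to 9 sites, the SD was 20.8 percentage points within genes and 2.06 between them. Genes with 2 to 4 sites had an SD of 21.4 within genes and likewise an estimate of 0 between them.

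**Figure D1:**
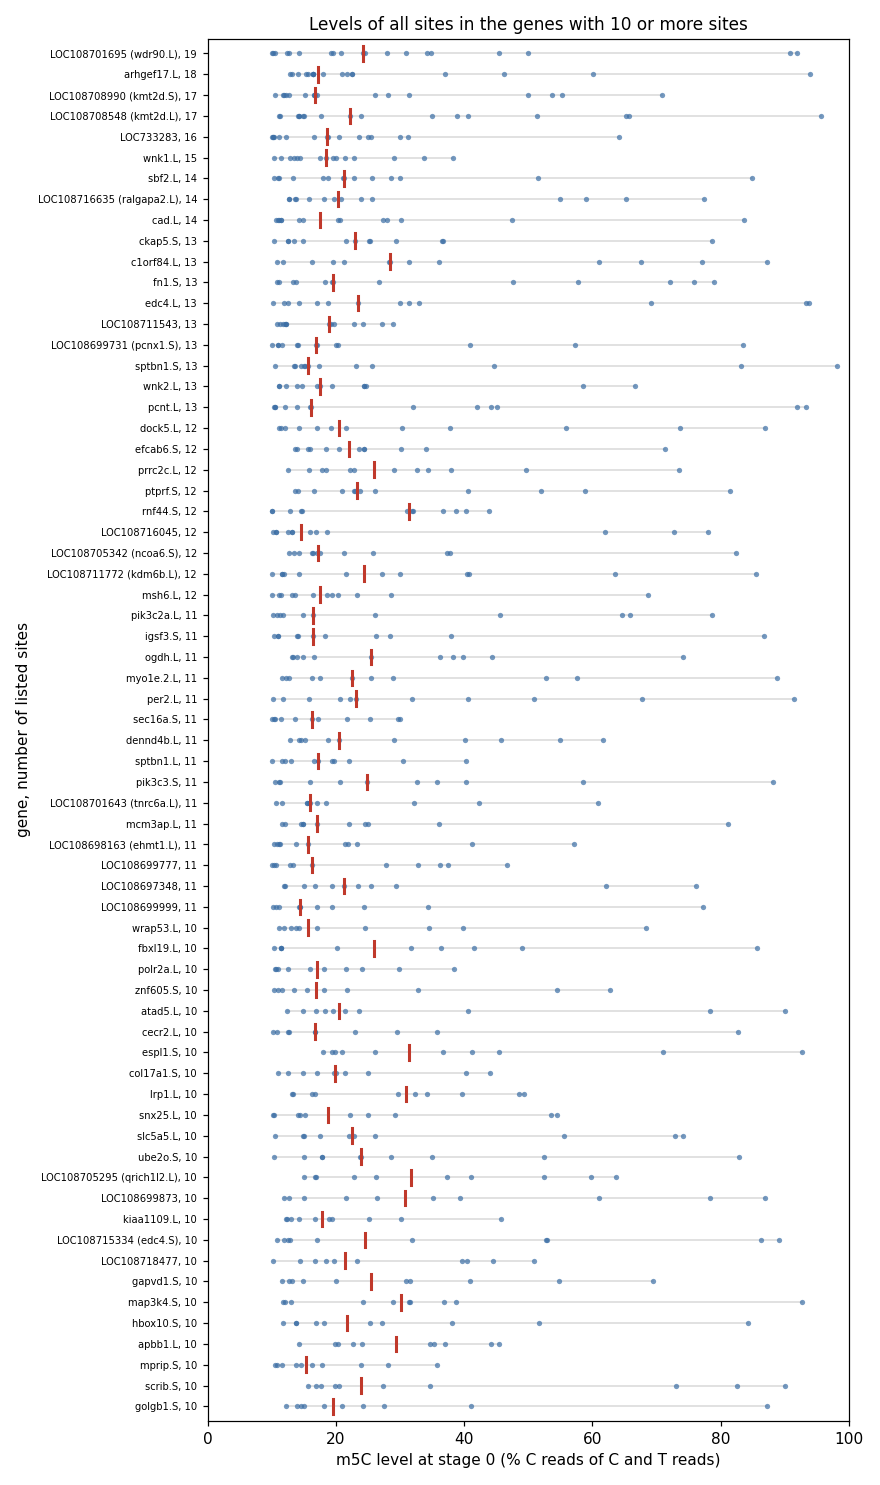
Levels of all 774 sites at stage 0, in percent of C and T reads, with 1 row per gene and the number of its sites after the name. Each point is a site, the grey line spans the lowest to the highest site, and the red mark is the median of the gene. Medians stay between 14.3% and 31.7%, while single sites reach up to 98.1%.

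Most of the genes had at least 1 site of 50% or more beside sites under 20%. The shares of such sites were close to those of the whole list, as given above. A site under 20% was present in all 66 genes, while 47.2% of all listed sites were under 20%. A site of at least 50% was present in 54 genes (81.8%), and 35 genes had at least 2 such sites. The share of genes with a site of at least 50% was 83.9% in genes with 9 sites and 60.9% in genes with 5 to 9 sites. Over all listed genes it was 30.3%. A site of at least 80% was present in 30 genes (45.5%), against 32.3%, 24.5% and 10.2% in the same order. Since the highest of many values is higher and the lowest is lower by number alone, these shares and counts were not read as a property of these genes. The 12 genes without a site of 50% included wnk1.L, whose 15 sites had levels from 10.3% to 38.2%, and sec16a.S, an organizer of transport out of the endoplasmic reticulum, whose 11 sites did not exceed 30%. In polr2a.L, the largest subunit of RNA polymerase II, named here after its values were seen, levels ran from 10.5% to 38.4% with a median of 17.0%. In LOC108711543 no level exceeded 28.8%.

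The sites with the highest lower bounds of the Wilson interval had levels close to complete. As this bound rises with the level, that follows from the choice. In sptbn1.S, which encodes the membrane skeleton protein beta-spectrin, 105 of 107 reads were C at position 25256968 of chromosome 5S (98.1%, 93.4% to 99.5%). The next site of this gene on the 5' side, at position 25256926, had 44.7%, and the other 11 levels included 83.2% as the highest and 10.5% as the lowest. In espl1.S, the protease separase that opens the cohesin ring at anaphase, 1125 of 1213 reads were C at position 129772269 of chromosome 2S, minus strand (92.7%, 91.1% to 94.1%). The level in arhgef17.L at position 179929602 of chromosome 2L, minus strand, was 93.9% (91.1% to 95.9%, 380 reads), while a site 118 nt away had 14%. In edc4.L, a scaffold of the mRNA decapping complex, position 31199165 of chromosome 4L had 93.8% (90.2% to 96.2%, 259 reads). The site in map3k4.S, a kinase of stress signalling, at position 48334602 of chromosome 5S had 92.7% (88.4% to 95.4%, 218 reads). Low sites thus lay near high ones in arhgef17.L and map3k4.S.

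The highest gene medians were those of LOC108705295 (qrich1l2.L in RefSeq) with 31.7%, rnf44.S with 31.4%, espl1.S with 31.4%, lrp1.L with 31.0% and LOC108699873 with 30.8%. These medians came from unlike patterns. In rnf44.S, which encodes a RING finger protein, the 12 levels ran from 10% to 43.8%, and 7 of them were above 30%. In lrp1.L, a large endocytic receptor, the 10 levels ran from 13.2% to 49.3%. In espl1.S, by contrast, the 10 levels ran from 17.9% to 92.7%. The lowest medians were found in LOC108699999 with 14.3%, LOC108716045 with 14.5%, mprip.S with 15.4%, wrap53.L with 15.6% and sptbn1.S with 15.6%. Here too, single sites were far higher, with 77.3% in LOC108699999 and 78.1% in LOC108716045. In mprip.S, which binds myosin phosphatase, the highest level was 35.7%.

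Next, the genes were grouped by function, with lists set by the start of the gene name. The lists therefore also hold genes that share letters without sharing a role, and 42 of the 66 genes were in no list. They were set with earlier results of these data known, so their shares are a description and were not tested. Both copies of a gene were counted as separate genes. Of the membrane receptor and adhesion list, 4 of 78 listed genes (5.13%) had 10 or more sites, beside 0.924% of all genes. They were fn1.S, the matrix protein fibronectin, lrp1.L, the receptor tyrosine phosphatase gene ptprf.S and col17a1.S, a collagen of hemidesmosomes. Their 45 sites had a median level of 22.8%. In fn1.S, 13 sites had levels from 10.7% to 78.9%, and 4 of them were at or above 50%. In ptprf.S, 12 sites had levels from 13.6% to 81.5%, and in col17a1.S the 10 levels did not exceed 43.9%.

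Of the chromatin list, 4 of 99 genes (4.04%) had 10 or more sites. Beside both copies of kmt2d, these were LOC108711772 (kdm6b.L in RefSeq), a histone demethylase, and LOC108705342 (ncoa6.S), a coactivator of nuclear receptors. In kdm6b.L, 12 levels ran from 10% to 85.4% with a median of 24.3%. In ncoa6.S, 11 of 12 levels were at or below 37.8%, and the remaining site had 82.4%. The histone methyltransferase gene LOC108698163 (ehmt1.L) and the bromodomain gene cecr2.L also belonged to the 66 genes, with 11 and 10 sites, though no list held them, and both are named here after their values were seen.

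Of the kinase list, 5 of 141 genes (3.55%) had 10 or more sites, namely wnk1.L, wnk2.L, map3k4.S and the lipid kinase genes pik3c2a.L and pik3c3.S. Their 60 sites had a median level of 19.7%. In pik3c3.S, which acts in autophagy and endocytosis, 11 levels ran from 10.4% to 88.1%, while the levels of wnk2.L ran from 11.1% to 66.7%. Of the cytoskeleton and junction list, 3 of 106 genes (2.83%) were included, both copies of sptbn1 and the class I myosin gene myo1e.2.L. In myo1e.2.L, 3 of 11 sites were above 50%, with 88.8% as the highest.

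Of the list on translation, decay and mRNA binding, 3 of 125 genes (2.40%) had 10 or more sites. These were both copies of edc4 and LOC108701643 (tnrc6a.L), a partner of Argonaute in silencing by microRNAs. Of the ubiquitin list, 2 of 144 genes (1.39%) were included, rnf44.S and fbxl19.L, and of the zinc finger list, 1 of 103 genes (0.971%), znf605.S. No gene reached 10 sites among the 38 genes of the Wnt, TGF-beta, Notch, Hedgehog and Hippo list or among the 6 genes of m5C writers and readers. The share of all genes that reached 10 sites (0.924%) is the background of each of these counts, which rest on 0 to 5 genes per list. The median number of sites per gene was 2 or 3 in each list, against 2 over all genes.

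X. laevis is allotetraploid, and the suffixes L and S mark the copies of a gene in its subgenomes. Subgenome L held 34 of the 66 genes (51.5%), against 54.2% of all listed genes, and subgenome S held 26 (39.4%), against 39.7%. Unplaced scaffolds held the other 6. No gene of the group lay on chromosome 7L, which held 4.38% of all listed genes. For 3 gene names, kmt2d, sptbn1 and edc4, both copies reached 10 sites. Among the 58 genes with a copy suffix, the partner copy had 5 to 9 sites in 15 cases and 1 to 4 sites in 9. In the other 28 cases no site was found under the partner's name, though a partner listed under a LOC number could be missed, and 26 of these partner names were also not in the RefSeq list. The partners nearest to the threshold were lrp1.S, pik3c2a.S, sbf2.S and LOC108701643's partner tnrc6a.S, with 9 sites each.

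The levels of the copies are given side by side, with no test of their difference. In sptbn1, the S copy had 2 sites above 80%, while the highest level of the L copy was 40.3%, and the medians were 15.6% in the S copy and 17.1% in the L copy. In kmt2d, the L copy had 4 sites of at least 50%, the highest at 95.7% (85.5% to 98.8%) on 46 reads, and the S copy had 4, the highest at 70.9%. In edc4, the L copy had 3 and the S copy had 4 such sites, with 93.8% and 89.1% as their highest levels and 23.4% and 24.4% as their medians. Spans also differed, with 97.3 kb in kmt2d.L and 73.2 kb in kmt2d.S. As sites were not aligned between copies, whether the same cytosines were listed was not analysed here.

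**Figure D2:**
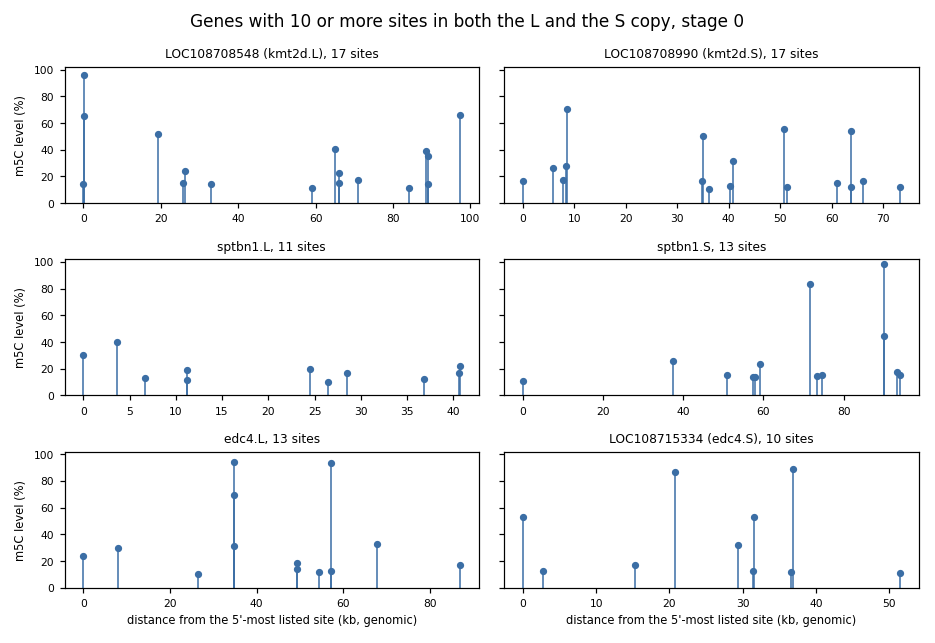
Sites of the 6 genes whose L copy (left) and S copy (right) both had at least 10 sites. The x axis is the genomic distance in kb from the 5'-most listed site, introns included, with a scale of its own in each panel, and the y axis is the level in percent. The highest stem is 98.1% in sptbn1.S and 40.3% in sptbn1.L.

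The 774 sites were covered by 25 to 2359 reads each. Their median coverage was 188 reads, and the quartiles were 104 and 376. Over all listed sites, the median was 146 reads and the quartiles were 67 and 396. The median was 170 reads in genes with 5 to 9 sites, 145 in genes with 2 to 4 sites and 105 in genes with 1 site. Coverage under 50 reads was found at 41 of the 774 sites (5.30%), against 13.8% of all sites. At the other end, the highest coverage was 2359 reads in these genes and 49613 reads in the whole list. The highest value of a longer list is higher by number alone, so this is a description. As a site must reach a minimum coverage to be listed, depth and number of sites are tied by the call, and their parts cannot be told apart.

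Unlike the level, coverage differed between genes. Between genes lay 41.8% of the variance of log2 coverage, with an SD of 0.83 between genes and of 0.98 within genes, both on the log2 scale. In genes with 5 to 9 sites the share was 58.9%. The highest gene medians were 1077 reads in LOC108699999, 872 in ckap5.S, 773 in fn1.S, 718 in mprip.S and 579.5 in espl1.S. The gene ckap5.S encodes the microtubule polymerase that was first purified from frog eggs as XMAP215. Its 13 sites had coverages from 341 to 1816 reads and levels from 10.4% to 78.7%. The lowest medians were 62.5 reads in kiaa1109.L, 70 in sec16a.S, 73 in col17a1.S, 76 in per2.L and 77 in c1orf84.L. In per2.L, a component of the circadian clock, the levels ran from 10.2% (4.74% to 20.5%, 59 reads) to 91.4% (77.6% to 97.0%, 35 reads).

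Within a gene, the best covered site had a median of 6.96 times the reads of the least covered site. The ratio was lowest in col17a1.S, at 2.63, and highest in prrc2c.L, at 42.1, where coverages ran from 29 to 1220 reads. Neither coverage nor level had a common slope along the genes. In the direction of transcription, coverage correlated positively with position in 33 genes and negatively in 33 genes (Spearman coefficient from -0.84 to 0.81). The strongest rise was in pcnt.L, a scaffold of the centrosome, and the strongest fall in ube2o.S. Level correlated positively with position in 32 genes and negatively in 34, with a median coefficient of -0.02. The highest site of the gene was the first or the last of its sites in 9 of the 66 genes. Within genes, coverage and level had a negative Spearman coefficient in 42 genes, with a median of -0.11, and over the 774 sites it was -0.05. These values describe sites that share an mRNA and a library. The authors' call also asked for a minimum number of C reads, which ties level to coverage, and its part was not tested.

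**Figure D3:**
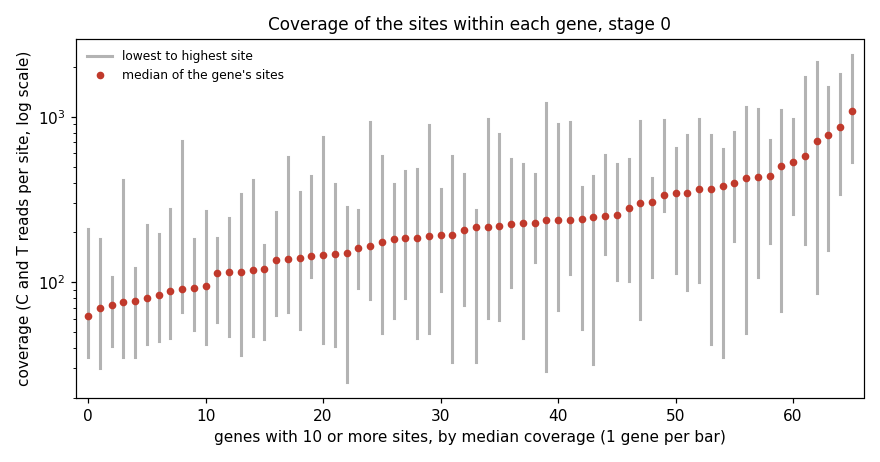
Coverage of the sites in each of the 66 genes, in C and T reads per site on a log axis, with genes ordered by their median. Grey bars span the lowest to the highest site and red points are medians, which run from 62.5 reads in kiaa1109.L to 1077 reads in LOC108699999.

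The distance between the first and the last site of a gene ranged from 4499 to 229436 nt on the genome, with a median of 29494 nt. Exons and introns were not told apart, because positions were used as deposited on the v9.2 assembly. The shortest spans were those of wrap53.L, which guides telomerase RNA to Cajal bodies, with 10 sites in 4499 nt, and of znf605.S with 10 sites in 5310 nt. They were followed by hbox10.S with 6126 nt, LOC108705295 with 6800 nt and LOC108699873 with 6924 nt. The longest spans were 229436 nt in LOC108716635 (ralgapa2.L), 167755 nt in LOC108711543, 145771 nt in wnk1.L, 139479 nt in ptprf.S and 130577 nt in arhgef17.L. In wrap53.L this amounted to 2.22 sites per kb of span.

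On the genome, introns included, sites were not spread evenly over these spans. Their spread along the mRNA was not analysed, and no comparison with random placement was made. In the median gene, the largest distance between neighbours took up 40.2% of the span. In arhgef17.L, a distance of 98217 nt (75.2% of the span) parted 10 sites at the 5' end from 8 sites on the 3' side. The 5' group, from position 180052734 to 180056250 of the minus strand, had levels from 12.7% to 60.1%. The 3' group, from 179925673 to 179954517, had levels from 14% to 93.9%. In snx25.L, a sorting nexin, 103744 nt or 85.0% of the span held no site, and in wrap53.L 3378 nt or 75.1%. By contrast, no distance in wdr90.L exceeded 3866 nt, and 11 of its 18 distances were under 1000 nt. In lrp1.L no neighbours were closer than 3086 nt, the highest such minimum of the 66 genes.

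**Figure D4:**
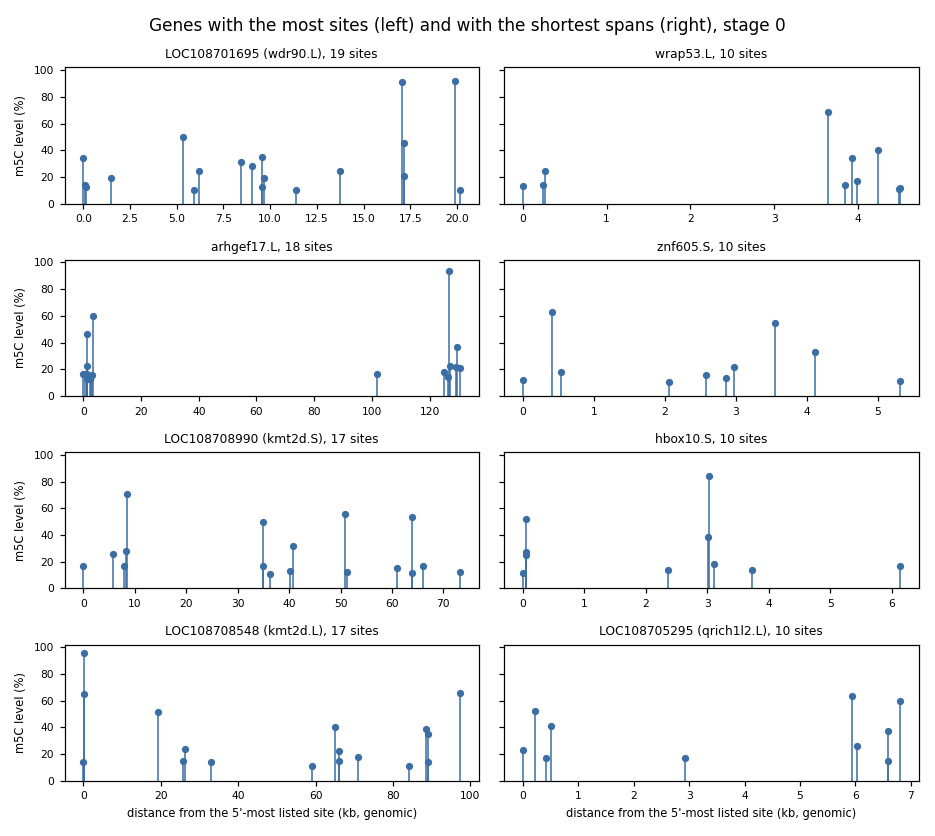
Sites of the 4 genes with the most sites (left) and of the 4 genes with the shortest spans (right) at stage 0. The x axis is the genomic distance in kb from the 5'-most listed site, introns included, with a scale of its own in each panel, and the y axis is the level in percent. In arhgef17.L the sites stand in groups at either end of a span of 130577 nt, whereas in LOC108701695 (wdr90.L) they are spread over 20166 nt.

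The 708 distances between neighbouring sites had a median of 1249 nt and quartiles of 201 and 4510 nt. In genes with 5 to 9 sites, 3172 distances had a median of 1985.5 nt, and in genes with 2 to 4 sites, 5213 distances had a median of 3104 nt. More sites in a gene shorten distances by number alone, so these medians are a description. Shares of short distances differed less between the classes. Neighbours up to 50 nt apart made up 88 of the 708 distances (12.4%), against 11.6% in genes with 5 to 9 sites and 9.53% in genes with 2 to 4 sites. Directly adjacent cytosines made up 17 distances (2.40%), against 2.84% and 2.47% in these classes. At least 1 distance of up to 50 nt was found in 52 genes and an adjacent pair in 14 genes. The largest number of distances of up to 50 nt in a gene was 4, in hbox10.S. A gene with more distances holds a short one more often by number alone, so these counts were not read as a property of these genes.

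**Figure D5:**
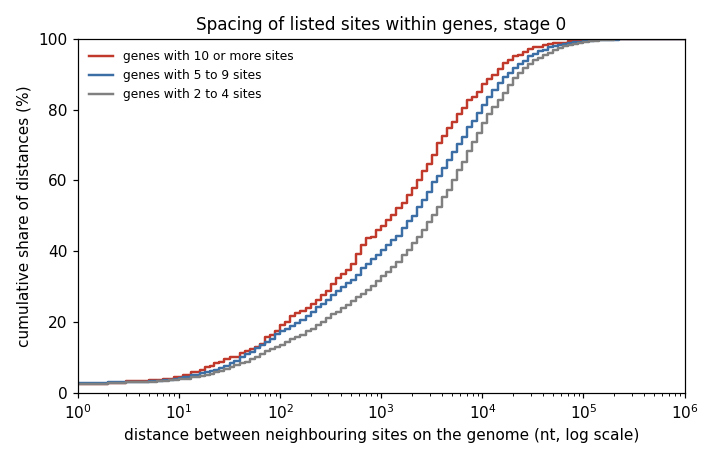
Cumulative share, in percent, of the genomic distances between neighbouring listed sites of a gene, on a log axis in nt, for genes with 10 or more, 5 to 9 and 2 to 4 sites. The curves start close together, at 2.40%, 2.84% and 2.47% for 1 nt, and part toward 1000 nt, where they stand at 47.2%, 40.4% and 33.0%.

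The tightest group of 3 sites lay in hbox10.S, a homeobox gene, at positions 103210, 103213 and 103216 of the plus strand of chromosome 7S. Levels there were 25.3% (20.5% to 30.8%), 27.2% (22.3% to 32.7%) and 51.6% (45.8% to 57.4%) on 269 to 283 reads, so the third site stood apart from the first 2. In tnrc6a.L, 3 sites within 14 nt had 10.6% (6.80% to 16.1%), 32.2% (25.7% to 39.4%) and 42.3% (35.6% to 49.3%) in the direction of transcription. In apbb1.L, an adaptor that binds the amyloid precursor protein, 3 sites within 28 nt had 45.5%, 44.2% and 34.6%. In igsf3.S, 3 sites within 29 nt had 26.2%, 28.4% and 18.3% on 61 to 95 reads, so that these and the apbb1.L sites differed least among the tightest 5 groups. In map3k4.S, 3 sites within 39 nt had 12%, 92.7% and 11.8%, so that a nearly complete site stood between weak ones.

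Levels of close neighbours were not more alike than those of distant ones. Adjacent cytosines differed by a median of 22.3 percentage points over 17 pairs, and neighbours 2 to 50 nt apart by 18.3 points over 71 pairs. Neighbours 51 to 200 nt apart differed by 12.3 points (89 pairs), as did those over 200 nt apart (12.3 points, 531 pairs). In genes with 5 to 9 sites, adjacent cytosines differed by 15.7 points (90 pairs) and neighbours over 200 nt apart by 13.7 points. The Spearman coefficient of the levels of neighbours in the 66 genes was -0.25 over the 17 adjacent pairs, 0.01 at 2 to 50 nt, 0.18 at 51 to 200 nt and -0.03 beyond. For adjacent pairs it was -0.01 in genes with 5 to 9 sites (90 pairs) and 0.01 in genes with 2 to 4 sites (129 pairs). At 51 to 200 nt it was -0.03 and 0.05 in these classes. Coverage behaved differently in the 66 genes. It differed by a median of 1.01 times in adjacent pairs and 1.15 times at 2 to 50 nt. The medians were 1.49 times at 51 to 200 nt and 1.82 times beyond. Sites within a sequenced fragment share reads, and the authors removed reads with many remaining C bases before the call. The part of this filter in the levels of close sites was not tested.

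Within the adjacent pairs, the 5' cytosine had the higher level in 10 and the 3' cytosine in 7. The largest difference of an adjacent pair was in edc4.L, where position 31221533 of chromosome 4L had 93.3% and position 31221534 had 12.5% on 119 and 120 reads. The pair in fn1.S ran the other way, with 19.5% at position 67419497 of chromosome 9_10S and 78.9% at position 67419498 on 1454 and 1468 reads. The smallest difference was 2.37 points, in LOC108716045. Among neighbours 2 to 50 nt apart, 31 of 71 distances (43.7%) were a multiple of 3 nt. The share was 40.1% in genes with 5 to 9 sites and 31.0% in genes with 2 to 4 sites. These shares were not tested, and the place of the sites in exons was not analysed.

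On either side of the threshold of the rule, the values were as follows. The 24 genes with exactly 10 sites had a median level of 21.5% and a median coverage of 210.5 reads over 240 sites. The 31 genes with 9 sites had a median level of 20.4% and a median coverage of 172 reads over 279 sites. A site of at least 50% was present in 18 genes with 10 sites and in 26 genes with 9 sites.

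Finally, the later stage was examined. At stage 25, 45 sites in 41 genes were listed, and these included none of the 774 sites and none of the 66 genes. Over the whole stage 0 list, 0.222% of the sites (36 of 16233) and 0.504% of the genes (36 of 7140) were listed again at stage 25, so that counts of 0 lay near the background and were not read as a result about these genes. The 36 shared genes had a median of 2 sites at stage 0, as had all 7140 genes. Of the 36 genes, 41.7% had 1 site, 50% had 2 to 4 sites and 8.33% had 5 to 9 sites, against 45.4%, 44.8% and 8.81% of all genes. No partner copy was found at stage 25 by name, which was looked up for the 58 genes with a copy suffix and would miss a partner listed under a LOC number. A single pooled list per stage gave no replicate error for this comparison. Whether these mRNAs were covered at stage 25 is not in the tables, so a loss of the mRNA, a lower depth and a lower level cannot be told apart.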

How the data were processed

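RNA bisulfite sequencing libraries of stage 25 and stage 0 embryos (2 each) were analysed from the deposited site lists. The authors trimmed reads with cutadapt and Trimmomatic, mapped them to the in silico converted X. laevis v9.2 genome with HISAT2 and to the converted transcriptome with Bowtie2, and kept sites by coverage, number of C reads, level, signal ratio and gene-specific conversion. The deposited coverage is a count of C and T reads per site, not normalized, and the deposited level is a fraction, printed in percent. For each of the 16233 sites, coverage times level gave whole C reads, within 0.0001 reads. The deposited p-value column holds the authors' site calls and was not used. Positions were taken unchanged, and the sources used here do not state if the first base is 0 or 1.

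Genes were taken by identifier. The 66 genes, and the lists and rules below, were chosen with earlier results of these data known. C and T reads were compared across the sites of each gene with Pearson's chi-square test, with Benjamini-Hochberg adjustment over 3895 genes (threshold 0.05). It covers counting error alone, because no molecular identifiers were used and several reads may come from 1 molecule. Variance was split by a one-way random-effects estimate. For levels it was below 0 and set to 0 between the 66 genes and between genes with 2 to 4 sites. Genes named were the 10 with the most sites, the 5 at either end of median level, median coverage and span, those with the largest range of level, the tightest runs, the highest lower bounds or both copies, and those in the fixed lists; others are marked or illustrate a stated extreme. Sequences, motifs, exons and UTRs were not analysed here, nor was the planned comparison of protein length. The counts of 1 fixed list are not reported here. Fisher's exact test between stages was run over the 36 sites listed at both stages, with Benjamini-Hochberg adjustment (threshold 0.05). By this test, with an adjusted p under the threshold, the level was lower at stage 25 at 25 of them. None of the 36 belonged to the 66 genes. This test too covers counting error alone. Tests were run with scipy 1.17.1 and pandas 2.3.3 in Python 3.11.15, plots were drawn with matplotlib 3.10.9, and the chi-square test was tested on simulated data.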

Additional observations from a re-analysis of the deposited data

How the results depend on the processing

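No paired analysis was possible because both libraries of a stage were merged into a single value before deposition, and for the same reason no replicate could be left out. Levels under 20% were found at 50.3% of the sites of the 66 genes, against 47.2% of all listed sites. The number of genes with 10 or more sites depended on the minimum level, the minimum coverage and the counting of close sites. It fell to 34 genes at a coverage minimum of 100 reads, to 1 gene at a level minimum of 20%, to 0 genes at a level minimum of 30% and to 42 genes when sites under 50 nt from the last counted site were left out. At a minimum of 50 reads, with runs of adjacent positions counted once, on assembled chromosomes or by gene name, it was 54, 61, 60 and 70, within 1.5 times. The 4 genes gained by name, bmp1.S, ralgapa1.S, rbfox2.S and znf143.L, each stand under 2 identifiers. Among the 10 genes richest in sites, 24 of 70 numbers of sites under these alternatives differed by more than 1.5 times. The median distance between neighbours was 176 nt when distances of 1000 nt or more were left out, by construction shorter. The median level stayed within 19.5% to 20.4%, and median coverage within 181 to 211 reads. Levels differed within all genes of the group tested by the likelihood-ratio test, at 50 reads and with sites 200 nt apart. At 100 reads they differed in 64 of 65 genes by the chi-square test. Among all listed genes tested under these 4 settings, the shares were 74.3%, 76.9%, 72.5% and 81.4%, in this order. Depth limits single levels, since at 41 sites coverage was under 50 reads.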
